A study of Mus musculus with 9 samples.

Results

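Sox9 and 5 other genes of gonadal cell fate (Sox8, Dmrt1, Wt1, Amh and Dhh) were followed in MA-10 cells, a clonal mouse line grown from a Leydig cell tumour. They are 6 of the 19938 genes with a probe that carries a single gene symbol, and each of the 6 had 1 such probe. Sox9 was chosen by its measured fall with AICAR, so its values in the comparisons with AICAR are given as a description with no test. The other 5 were chosen for their place beside it in the sex determination of the gonad. The design held 3 groups of 3 arrays: cells given 10 µM forskolin with 1 mM AICAR, cells given 10 µM forskolin, and control cells given the DMSO vehicle, whose titles speak of no treatment. All groups were kept for 1.5 h in serum-free medium, and AICAR given alone is not analysed here. Forskolin switches on adenylyl cyclase and so raises cAMP, and AICAR is converted in the cell to a mimic of AMP that activates the energy sensor AMPK. The values are log2 intensities of an Affymetrix whole-transcript array. The labels leave unsaid whether replicates came from different cultures, and p-values therefore speak to the spread among these 9 samples, which may be technical.

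In the fetal testis, SRY switches on Sox9 in the supporting cells, and SOX9, a transcription factor with an HMG box, commits them to the Sertoli fate. Sox8 is a relative of Sox9 in the same subgroup of SOX factors and shares part of its work, while DMRT1 and WT1 keep the Sertoli fate in place. The committed cells secrete AMH, which removes the Müllerian ducts, and DHH, the hedgehog ligand to which the precursors of Leydig cells respond. In the normal testis these 6 genes are thus known mainly as Sertoli cell genes, and the cells profiled here are of the Leydig lineage.

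Median log2 values per array ran between 7.14 and 7.19. The deposited values hold no detection call, so a background level was taken from 1027 olfactory receptor genes, which are silent in most tissues: 95% of them averaged 6.63 or less over the 9 arrays. Of 9 measured Leydig cell markers 8 lay above that level, and the other was Hsd17b3 (mean 4.91). Of all 19938 genes 12680 lay above the background level, and the share of Sertoli cell markers above it, 10 of 15, was near that. Among these 10 was Clu (11.71), whereas Fshr, the receptor for follicle-stimulating hormone, lay below it (6.38). Of 10 germ cell markers 7 were at or below it, as were 5 of 7 macrophage markers. Among the array weights, which are low for arrays that deviate from their group, those of AICAR replicates 1 and 3 were the lowest (0.354 and 0.318, against 0.513 to 3.46 in the other arrays).

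Sox9 was lower on every array of cells given forskolin with AICAR than on any other array. It read 9.38, 9.31 and 9.28 in forskolin with AICAR, 9.71, 9.83 and 9.81 in forskolin, and 9.96, 9.82 and 9.87 in control. The 3 AICAR arrays thus lay below all others, while the forskolin and control arrays overlapped. The group means were 9.33 ± 0.05 with AICAR, 9.78 ± 0.06 with forskolin and 9.88 ± 0.07 in control (SD, n = 3 each). The difference of forskolin with AICAR from forskolin was −0.46 on the log2 scale (SE 0.05), or 1.37-fold lower, and that from control was −0.56 (SE 0.05), or 1.47-fold lower. Of the 19938 genes, 260 had a deeper fall than Sox9 against forskolin and 145 against control. A smaller signal can mean less RNA per cell or fewer cells that make it, which these data cannot tell apart.

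Forskolin alone left Sox9 at 9.78, against 9.88 in control, a log2 difference of −0.10 (SE 0.05) that did not pass the test (adjusted p = 0.767, limma). This comparison shares its forskolin arrays with the one by which Sox9 was chosen. The 95% confidence interval of the difference ran from −0.22 to 0.01.

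**Figure D1:**
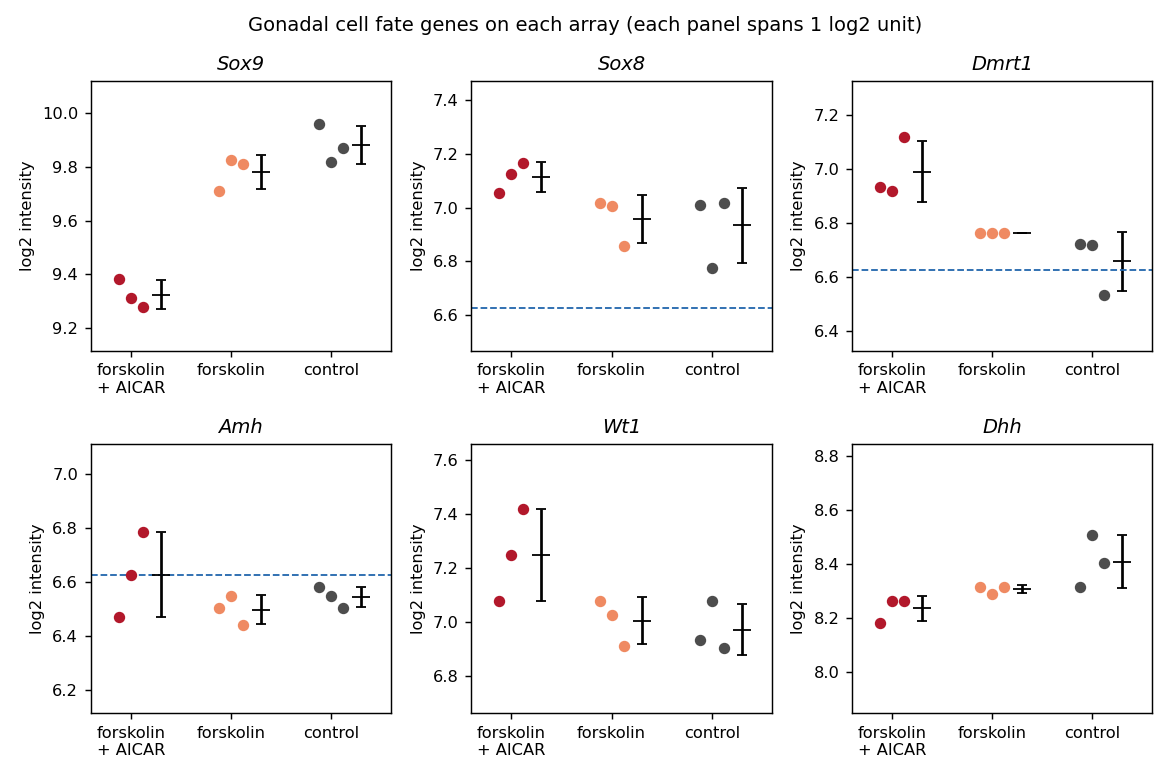
Log2 intensity (vertical axes, each spanning 1 log2 unit) of the 6 genes on each of the 9 arrays, as points, with the group mean and SD (n = 3) as a bar beside them; the dashed line is the background level of 6.63. Sox9 reads 9.28 to 9.38 in forskolin with AICAR and 9.71 or more elsewhere, and the 3 forskolin values of Dmrt1 are equal.

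None of the 6 genes was called changed by forskolin alone in limma at an adjusted p under 0.05, where 0.692% of all genes were called, and none had an unadjusted p under 0.05. In forskolin with AICAR against forskolin, none of the 5 genes tested was called and 2 had an unadjusted p under 0.05, where 5.1% of all genes were called. In forskolin with AICAR against control, 1 of 5 was called, Dmrt1, and 4 had an unadjusted p under 0.05, where 8.72% of all genes were called. At an unadjusted p under 0.05 stood 7.27%, 24.1% and 31.1% of all genes in these comparisons. Called higher were 0.497%, 0.978% and 3.04% of all genes in these comparisons, and called lower 0.196%, 4.12% and 5.68%. Each pair of comparisons shares the arrays of 1 group. Among the genes tested, the arrays of the groups did not overlap for 1 of 6, 3 of 5 and 3 of 5 in these comparisons, where 14%, 23.6% and 29.5% of all genes did not overlap.

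**Figure D2:**
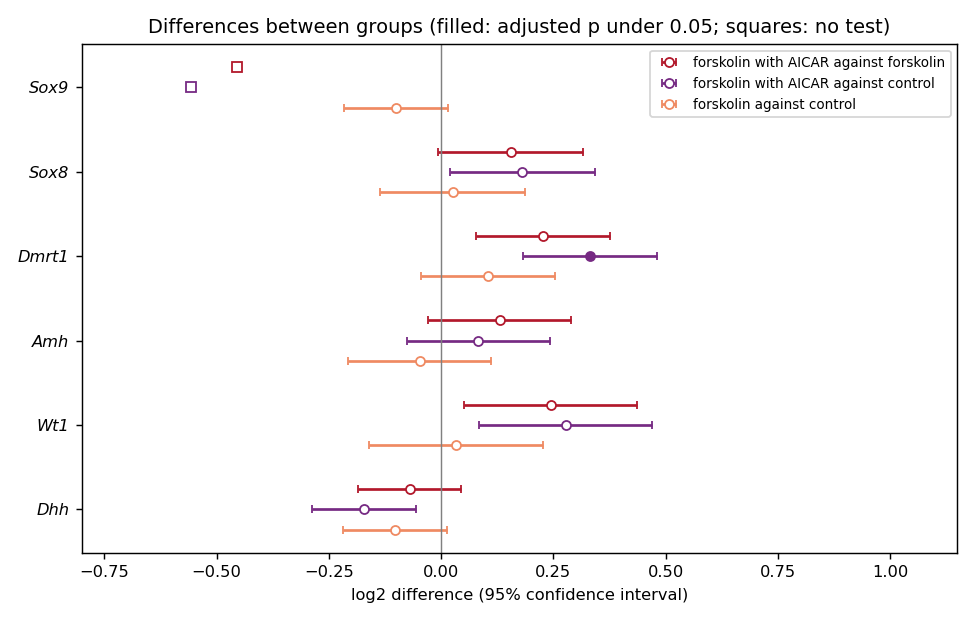
Log2 differences between the groups (horizontal axis) for the 6 genes, with 95% confidence intervals; a filled marker is an adjusted p under 0.05 and squares are values with no test. Dmrt1 in forskolin with AICAR against control is the filled marker (0.33), and Sox9 lies left of 0 in the comparisons with AICAR (−0.46 and −0.56).

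Sox8, the relative of Sox9, was not called in any comparison. It read 7.05, 7.12 and 7.16 in forskolin with AICAR, 7.02, 7.005 and 6.86 in forskolin, and 7.01, 6.77 and 7.02 in control. The AICAR arrays lay just above all others, and the lowest value was that of control replicate 2. The log2 difference was 0.16 against forskolin (SE 0.07, adjusted p = 0.221) and 0.18 against control (SE 0.07, adjusted p = 0.129), and neither passed the test in limma. Without control replicate 2 the difference from control was 0.10. Forskolin alone differed from control by 0.03 (95% confidence interval −0.14 to 0.19), a difference that turned to −0.0052 after median centring. The third member of the subgroup, Sox10, which acts in neural crest cells, averaged 7.18 in forskolin with AICAR, 7.05 in forskolin and 7.10 in control and was not called in any comparison.

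Dmrt1, which keeps Sertoli cells from turning into granulosa-like cells, was the gene called among the 5 tested. It read 6.93, 6.92 and 7.12 in forskolin with AICAR, an equal 6.76 on all 3 forskolin arrays, and 6.72, 6.72 and 6.53 in control. The AICAR arrays lay above all others, and the lowest control array lay under the background level of 6.63. Such equal values were not rare: 2.25% of all genes had 1 value on the 3 forskolin arrays. In forskolin with AICAR Dmrt1 rose 1.26-fold against control (log2 difference 0.33, SE 0.07, adjusted p = 0.0181, limma). The call was lost without control replicate 3 (adjusted p = 0.0606), in a fit of the 2 groups alone (0.0675) and without the arrays numbered 3 (0.0542). Against forskolin the difference was 0.23 (SE 0.07, adjusted p = 0.0875), called without AICAR replicate 1 (0.26, adjusted p = 0.0488), and for forskolin against control it was 0.10 (SE 0.07, adjusted p = 0.843).

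Wt1, a zinc finger factor without which the gonad does not form, read 7.08, 7.25 and 7.42 in forskolin with AICAR, 7.08, 7.02 and 6.91 in forskolin, and 6.93, 7.08 and 6.90 in control. The lowest AICAR array, replicate 1, equalled the highest array of each other group, and replicate 3 was the highest of all. The log2 differences of 0.24 against forskolin (SE 0.09, adjusted p = 0.136) and 0.28 against control (SE 0.09, adjusted p = 0.0741) did not pass the test in limma. Both passed it without AICAR replicate 1, at 0.33 (adjusted p = 0.0257) and 0.36 (adjusted p = 0.014). Forskolin alone differed from control by 0.03 (adjusted p = 0.977).

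The secreted products of the Sertoli cell gave no call. Amh read 6.47, 6.63 and 6.79 in forskolin with AICAR, 6.50, 6.55 and 6.44 in forskolin, and 6.58, 6.55 and 6.51 in control. Its mean of 6.56 over all arrays was under the background level. The AICAR arrays spanned the control values, and forskolin replicate 3 (6.44) lay below every AICAR array. The log2 differences were 0.13 against forskolin (adjusted p = 0.279) and 0.08 against control (adjusted p = 0.435), and that against forskolin was called without AICAR replicate 1 (0.21, adjusted p = 0.0411). Without AICAR replicate 3 they were 0.0522 and 0.0046, and without AICAR replicate 1 that against control was 0.16.

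Dhh read 8.18, 8.26 and 8.26 in forskolin with AICAR, 8.31, 8.29 and 8.31 in forskolin, and 8.31, 8.51 and 8.40 in control. It was the other member, beside Sox9, whose AICAR arrays all lay below those of both other groups. Its log2 difference from control, −0.17 (SE 0.05), missed the threshold in limma (adjusted p = 0.0672) and passed it without control replicate 1 (−0.22, adjusted p = 0.0426). Against forskolin the difference was −0.07 (SE 0.05, adjusted p = 0.408), and it turned to 0.0093 after quantile normalization. Forskolin alone differed from control by −0.10 (SE 0.05, adjusted p = 0.762).

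The direction in which the members differed went with their brightness. The 4 genes with higher means in forskolin with AICAR (Sox8, Dmrt1, Amh and Wt1) have mean log2 values of 6.56 to 7.07. Over all 3290 genes with a mean between 6.5 and 7.5, the median difference of forskolin with AICAR from forskolin was 0.09, and 76.0% of these genes were higher. That median shift against the control mean was 0.04, 0.12 and 0.17 on AICAR replicates 1, 2 and 3, the same order of arrays as in Sox8, Amh and Wt1. Among those 3290 genes 4.16% were called against forskolin and 9.60% against control. Against control their median difference was 0.12, and 79.2% were higher. Foxl2, Rspo1, Basp1, Spry1 and Ptgdr, named below as higher against control, have means in this range. Dmrt2 lies among genes with means between 5.5 and 6.5, where that median was 0.11 and 88.6% were higher. For the 2460 genes around the brightness of Sox9, with means between 9.5 and 10.5, the median difference from forskolin was −0.02. Sox9 itself, which was chosen by its fall, stood at −0.46. For the 2400 genes around the brightness of Dhh, with means between 7.5 and 8.5, the median difference was −0.03, against −0.07 for Dhh. The part of brightness in the differences of the 6 members and of Foxl2, Rspo1, Basp1, Spry1, Ptgdr and Dmrt2 was not tested.

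**Figure D3:**
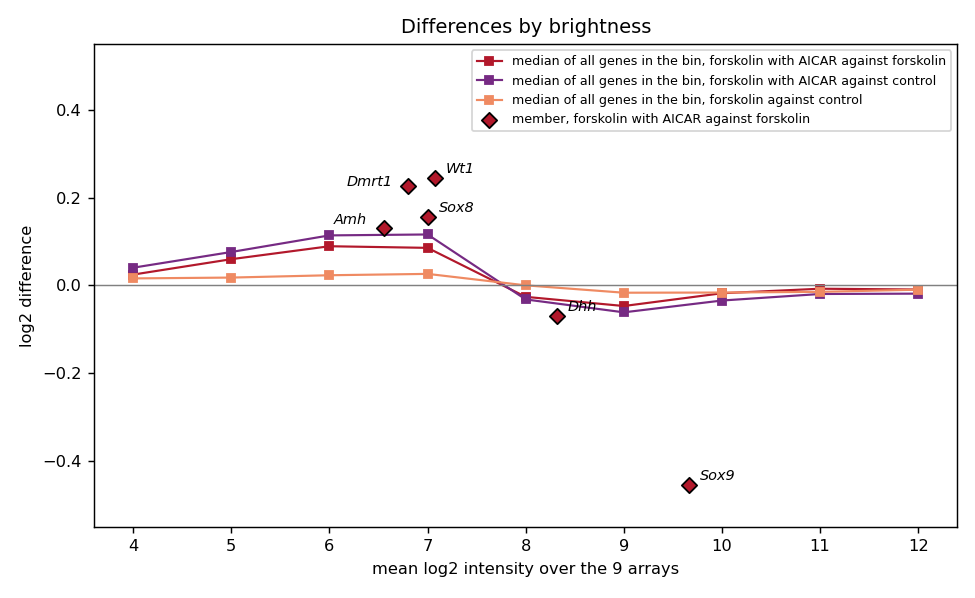
Log2 difference between groups (vertical axis) by mean log2 intensity over the 9 arrays (horizontal axis): squares joined by lines are medians of all genes in bins 1 log2 unit wide, and diamonds are the 6 genes in forskolin with AICAR against forskolin. The bin medians are 0.09 at a brightness of 7 and −0.05 at 9, and Sox9 lies at −0.46.

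Over the 9 arrays, the genes whose values followed Sox9 most closely were Zdhhc5 (Pearson r = 0.994), Fan1 (0.987), Rab7b, Cdan1 and Spaca6 (0.987 each) and Fbxw17 (0.984). Zdhhc5 encodes a palmitoyltransferase, Fan1 a nuclease of DNA crosslink repair, Rab7b a small GTPase of endosomes and Cdan1 a protein mutated in a congenital anaemia in humans. Chosen by this likeness, all 6 were lowest on the AICAR arrays, as Sox9 was. Their log2 differences from forskolin were −0.77 for Spaca6, −0.61 for Rab7b, −0.31 for Cdan1, −0.28 for Fan1, −0.27 for Fbxw17 and −0.20 for Zdhhc5. The arrays of a group are replicates, so this likeness rests mostly on the order of the 3 groups, and 446 genes (2.24%) reached r = 0.9. By Spearman's rho the closest 6 genes, led by Smarcad1, had 0 in common with these. Among the members, r with Sox9 was −0.87 for Dmrt1, −0.85 for Wt1, −0.67 for Sox8, −0.53 for Amh and 0.61 for Dhh.

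**Figure D4:**
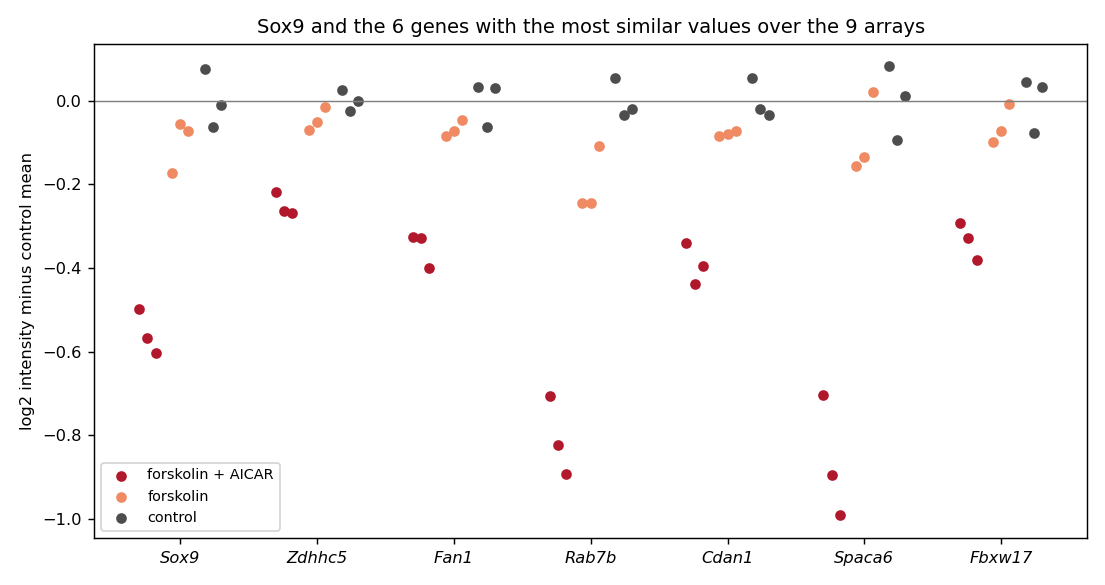
Log2 intensity minus the gene's control mean (vertical axis) for Sox9 and the 6 genes most like it over the 9 arrays, with each array as a point coloured by group. In every gene the 3 AICAR points lie below all forskolin and control points, which goes with the choice of the 6 by likeness to Sox9. For Sox9 the AICAR points lie at a mean of −0.56.

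Among the other genes of testis determination, Cbx2, Cited2 and Insr fell with AICAR. Of 22 measured, 0 rose, 3 fell and 19 were not called in forskolin with AICAR against forskolin (median 0.04, against 0.02 over all genes). In that comparison 0.978% of all genes were called higher and 4.12% lower. Cbx2, a Polycomb protein needed for Sry and Sox9 expression in the mouse gonad, read 9.19, 9.11 and 9.08 in forskolin with AICAR, 9.71, 9.85 and 9.79 in forskolin, and 9.71, 9.66 and 9.66 in control. Its groups did not overlap, and the fall was 1.58-fold against forskolin (log2 difference −0.66, SE 0.05, adjusted p = 0.00012, limma) and 1.46-fold against control (−0.55, SE 0.05, adjusted p = 0.000317). Cited2, a cofactor of WT1 in the early gonad, fell by 0.23 against forskolin (SE 0.03, adjusted p = 0.00563) and by 0.23 against control (adjusted p = 0.00477). The insulin receptor gene Insr fell by 0.21 (SE 0.05, adjusted p = 0.0409), but its call was lost without any 1 of 8 arrays, AICAR replicate 1 being the exception (adjusted p up to 0.136), after quantile normalization (0.0654) and after median centring (0.0727). Cited2 lost its calls without the arrays numbered 3 (adjusted p = 0.0841 and 0.0634). Against control, Ptgdr, a receptor for prostaglandin D2, was also called higher (0.24, adjusted p = 0.0231), at a mean of 6.51 under the background level, a call lost if control replicate 2 or 3 or AICAR replicate 3 was left out (adjusted p up to 0.0919). With forskolin alone 0 of the 22 were called by limma, and 3 had an unadjusted p under 0.05. Igf1r had the smallest p of these (log2 difference 0.18, adjusted p = 0.311).

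None of 20 listed target genes of SOX9 was called lower in any comparison, which for a list of 20 is near the share over all genes. Of all genes 0.196% were called lower with forskolin alone, 4.12% in forskolin with AICAR against forskolin and 5.68% against control. Of these 20, 0 rose and 0 fell in limma in forskolin with AICAR against forskolin, 5 had an unadjusted p under 0.05 (24.1% of all genes did), and the median difference was 0.09 (0.02 over all genes). By brightness, the median over all genes was 0.09 at means between 6.5 and 7.5 and −0.03 between 7.5 and 8.5. Many of the 20 lie in these ranges. The smallest p was that of the cartilage collagen gene Col9a3, whose difference of 0.34 (SE 0.09, adjusted p = 0.0674) was upward. Against control Col9a3 was called higher (0.36, SE 0.09, adjusted p = 0.0414), and the call was lost without any 1 of 7 arrays, the exceptions being forskolin replicate 3 and AICAR replicate 1 (at most 0.147 for the adjusted p). With forskolin alone 0 of 20 were called by limma and 1 had an unadjusted p under 0.05, Col11a1 (−0.10, adjusted p = 0.68).

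Among 18 other Sox genes, Sox18, a factor of endothelial cells, fell with AICAR. It read 8.79, 8.63 and 9.06 in forskolin with AICAR, 9.34, 9.40 and 9.52 in forskolin, and 9.50, 9.52 and 9.34 in control. Every AICAR array lay below every other array. The log2 difference was −0.59 against forskolin (SE 0.10, adjusted p = 0.00887, limma) and −0.63 against control (SE 0.10, adjusted p = 0.00631), or 1.51-fold and 1.54-fold lower. Of the 5 endothelial markers measured, 0 were called by limma and 0 had an unadjusted p under 0.05 in any comparison. Cdh5 (mean 11.96) and Tie1 (6.89) lay above the background level and the other 3 endothelial markers under it. The other 17 Sox genes were not called against forskolin, where 5.1% of all genes were called. Against control Sox3 rose (0.31, SE 0.08, adjusted p = 0.0483), which was lost without any 1 of 7 arrays (all but control replicate 1 and AICAR replicate 1), with an adjusted p of at most 0.169. The median over the 18 genes was 0.13 against forskolin and 0.15 against control. Over all genes with means between 6.5 and 7.5 it was 0.09 and 0.12. The mean log2 value of the 18 genes per array was 7.14 to 7.33 in forskolin with AICAR, 7.11 to 7.17 in forskolin and 7.05 to 7.19 in control. With forskolin alone 0 were called by limma and 0 had an unadjusted p under 0.05.

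Among the DMRT genes, Dmrta1 fell with AICAR. Dmrta1, a relative of Dmrt1, read 7.30, 7.32 and 7.34 in forskolin with AICAR, 7.84, 7.78 and 7.91 in forskolin, and an equal 7.78 on the 3 control arrays. It fell 1.44-fold against forskolin (log2 difference −0.52, SE 0.04, adjusted p = 0.000168, limma) and 1.37-fold against control (−0.46, SE 0.04, adjusted p = 0.000333). Of the 6 other DMRT genes it was the called one against forskolin, with 5 not called, where 5.1% of all genes were called. Against control Dmrt2 rose (0.32, SE 0.06, adjusted p = 0.0108), at a mean of 6.48 under the background level. Dmrt2 lost that call without control replicate 3 (adjusted p = 0.05003) and without the arrays numbered 3 (adjusted p = 0.0918). With forskolin alone limma called 0 of the 6, and 1 had an unadjusted p under 0.05, Dmrt3 (log2 difference 0.17, adjusted p = 0.545).

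Of the genes through which DHH is received, the hedgehog coreceptors Boc and Gas1 fell with AICAR. Of 16 hedgehog pathway genes measured, 0 rose, 2 fell and 14 were not called against forskolin (median 0.01), where 4.12% of all genes were called lower. The receptor Ptch1, the transducer Smo and the effectors Gli1, Gli2 and Gli3 were among those not called. Boc read 9.40, 9.29 and 9.36 in forskolin with AICAR, 9.69, 9.76 and 9.83 in forskolin, and 9.52, 9.54 and 9.54 in control. The 3 groups did not overlap, with forskolin highest and forskolin with AICAR lowest. The fall of Boc against forskolin was 1.33-fold (log2 difference −0.41, SE 0.04, adjusted p = 0.00107, limma) and that against control 1.14-fold (−0.18, SE 0.04, adjusted p = 0.038). The call against control was lost without any 1 of 6 arrays, among them each control array (adjusted p up to 0.126), and after quantile normalization (0.0712). For forskolin against control Boc differed by 0.23 (SE 0.04, adjusted p = 0.0714), and with it 0 of 16 genes were called by limma and 1 had an unadjusted p under 0.05.

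Gas1, which is also a target gene of WT1, read 9.18, 9.27 and 9.28 in forskolin with AICAR, 9.42, 9.51 and 9.50 in forskolin, and 9.42, 9.52 and 9.46 in control. It fell 1.18-fold against forskolin (−0.23, SE 0.05, adjusted p = 0.0196, limma) and 1.17-fold against control (−0.23, SE 0.05, adjusted p = 0.0189). The call against forskolin was lost when forskolin replicate 2, forskolin replicate 3 or AICAR replicate 2 was left out (at most 0.0818 for the adjusted p), and that against control when control replicate 2, control replicate 3 or AICAR replicate 2 was (at most 0.0713). Both were lost without the arrays numbered 3 (0.157 and 0.113) and after quantile normalization (0.0701 and 0.0744).

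cAMP acts on many promoters through the cAMP response element. The 250 bases before the start are therefore shown for the members Sox8 and Dhh and for Gas1, a coreceptor that fell, as Boc did. They are RefSeq sequences of the mouse build GRCm38.p6, on the minus strand in each case, at chr17:25570687-25570936 (Sox8), chr15:98898541-98898790 (Dhh) and chr13:60177536-60177785 (Gas1). Capitals mark the GC box, GGGCGG or CCGCCC, to which factors of the SP family bind.
Sox8: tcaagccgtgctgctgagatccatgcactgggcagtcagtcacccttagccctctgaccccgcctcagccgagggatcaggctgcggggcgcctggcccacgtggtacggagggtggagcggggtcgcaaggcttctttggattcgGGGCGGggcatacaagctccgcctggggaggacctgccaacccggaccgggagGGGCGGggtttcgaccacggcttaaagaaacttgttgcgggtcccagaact
Dhh: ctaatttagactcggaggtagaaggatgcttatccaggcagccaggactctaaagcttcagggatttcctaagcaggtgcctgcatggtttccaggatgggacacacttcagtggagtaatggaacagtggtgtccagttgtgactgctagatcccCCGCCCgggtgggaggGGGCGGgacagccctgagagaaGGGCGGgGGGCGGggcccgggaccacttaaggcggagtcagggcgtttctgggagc
Gas1: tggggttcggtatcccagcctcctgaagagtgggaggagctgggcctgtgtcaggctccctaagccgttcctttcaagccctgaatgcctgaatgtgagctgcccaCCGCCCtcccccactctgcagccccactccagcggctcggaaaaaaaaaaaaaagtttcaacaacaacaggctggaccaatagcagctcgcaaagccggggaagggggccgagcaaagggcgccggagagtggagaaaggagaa
Read on both strands, the GC box occurred 2 times in Sox8, 4 times in Dhh and 1 time in Gas1, and in 32.7% of 32851 promoter windows of this length. The response element TGACGTCA, found in 1.55% of the windows, its shorter form TGACG, which lies within it and is found in 17.8%, and the core of SOX sites, ACAAT, found in 27.7%, had 0 matches in these 3 windows. A match or its absence describes these letters and says nothing of the binding of a factor.

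On the receiving side of AMH, whose receptors signal through the BMP-type SMADs, 15 genes were measured. Against forskolin 1 rose, 1 fell and 13 were not called (median 0.03), where 5.1% of all genes were called. Id1, a target of BMP signalling, read 9.66, 9.70 and 9.77 in forskolin with AICAR, 10.00, 10.05 and 10.16 in forskolin, and 9.55, 9.81 and 9.80 in control. It fell 1.28-fold against forskolin (−0.36, SE 0.07, adjusted p = 0.0249, limma), to the range of the control arrays, and lost the call if forskolin replicate 2, forskolin replicate 3 or AICAR replicate 2 was left out (at most 0.1001 for the adjusted p). Bmpr1b, a type I receptor with a mean of 4.93, under the background level, was called higher (0.21, SE 0.05, adjusted p = 0.0453), a call lost without any 1 of 8 arrays, all but AICAR replicate 1 (at most 0.155). Against control 2 rose, the inhibitory SMAD genes Smad7 (0.48, SE 0.05, adjusted p = 0.00105) and Smad6 (0.41, SE 0.06, adjusted p = 0.00271), the call of Smad6 being lost without the arrays numbered 3 (0.0675). Smad7 was also the 1 gene of the 15 called with forskolin alone (0.30, SE 0.05, adjusted p = 0.0412), which was lost without any 1 of 8 arrays, all but AICAR replicate 1 (at most 0.177), and after median centring (0.0669).

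Among 10 cofactors and targets of WT1, Gas1 was the called gene against forskolin (0 rose, 1 fell, 9 not called, median 0.08). In that comparison 4.12% of all genes were called lower. Against control the cofactor Basp1 (0.24, SE 0.05, adjusted p = 0.0225) and Spry1, an inhibitor of receptor tyrosine kinase signalling (0.31, SE 0.07, adjusted p = 0.0298), rose. Both have means between 6.5 and 7.5, where 79.2% of genes were higher against control (median 0.12). Basp1 lost its call when control replicate 1 or 3, or AICAR replicate 2 or 3, was left out (at most 0.0861). Spry1 lost its call without those arrays or forskolin replicate 1 or 2 (up to 0.114). With forskolin alone 0 of 10 were called by limma and 2 had an unadjusted p under 0.05. Basp1 had the smaller p (log2 difference 0.15, adjusted p = 0.421).

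The ovarian side, which opposes Sox9 in the gonad, gave 1 call in 17 genes against forskolin, where 5.1% of all genes were called. Axin2, a target and inhibitor of WNT signalling, read 8.25, 8.20 and 8.35 in forskolin with AICAR, 8.48, 8.51 and 8.64 in forskolin, and 8.64, 8.54 and 8.59 in control. The AICAR arrays lay below the rest, at −0.28 against forskolin (SE 0.06, adjusted p = 0.023, limma) and −0.33 against control (SE 0.06, adjusted p = 0.00862). The call against forskolin was lost when forskolin replicate 2, forskolin replicate 3 or AICAR replicate 2 was left out (at most 0.0907) and after quantile normalization (0.0516). The other 16 genes were not called against forskolin, and the list's median was 0.04. Against control Foxl2, the granulosa cell factor that represses Sox9, rose (0.26, SE 0.06, adjusted p = 0.0314), as did Rspo1, which strengthens WNT signalling (0.20, SE 0.05, adjusted p = 0.0407). Both have means between 6.5 and 7.5, where 79.2% of genes were higher against control (median 0.12). Foxl2 lost its call when control replicate 1 or 3, or AICAR replicate 2 or 3, was left out (at most 0.121). Rspo1 lost its call without any 1 of 7 arrays, all but control replicate 1 and AICAR replicate 1 (at most 0.111), and with a trended and robust prior (0.0543). With forskolin alone 0 of 17 were called by limma and 2 had an unadjusted p under 0.05. Rspo1 had the smaller p (log2 difference 0.18, adjusted p = 0.307).

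Sertoli cell markers other than the members gave no call in limma in any comparison, with 2 of 15 at an unadjusted p under 0.05 in each. At that level stood 7.27% of all genes with forskolin alone, 24.1% in forskolin with AICAR against forskolin and 31.1% against control. Called were 0.692%, 5.1% and 8.72% of all genes, and no call in a list of 15 is near these shares. The markers with the smallest p were Cst12 in forskolin with AICAR against forskolin (log2 difference −0.24, adjusted p = 0.0661) and the tight junction gene Cldn11 against control (log2 difference 0.23, adjusted p = 0.0646). With forskolin alone it was Gata1 (log2 difference −0.16, adjusted p = 0.309). The mean log2 value of the 15 genes was 7.42 to 7.49 per array in forskolin with AICAR, 7.41 to 7.43 in forskolin and 7.36 to 7.43 in control. Of 9 Leydig cell markers 5 fell with AICAR against forskolin, where 4.12% of all genes were called lower. They were led by Star, the cholesterol carrier of steroid synthesis (−2.05, SE 0.06, adjusted p = 5.21e-07, limma). Of these 5, Hsd3b1 (−0.59, adjusted p = 0.0438) and Hsd3b6 (−0.25, adjusted p = 0.0337) lost their calls without any 1 of 7 arrays, the exceptions being forskolin replicate 2 and AICAR replicate 1 (at most 0.1203 and 0.1174). With forskolin alone Star (1.89), Fdx1 (0.90) and Scarb1 (0.35) rose. In forskolin with AICAR against control Fdx1 rose (0.56) and 0 of the 9 were called lower, where 5.68% of all genes were.

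**Figure D5:**
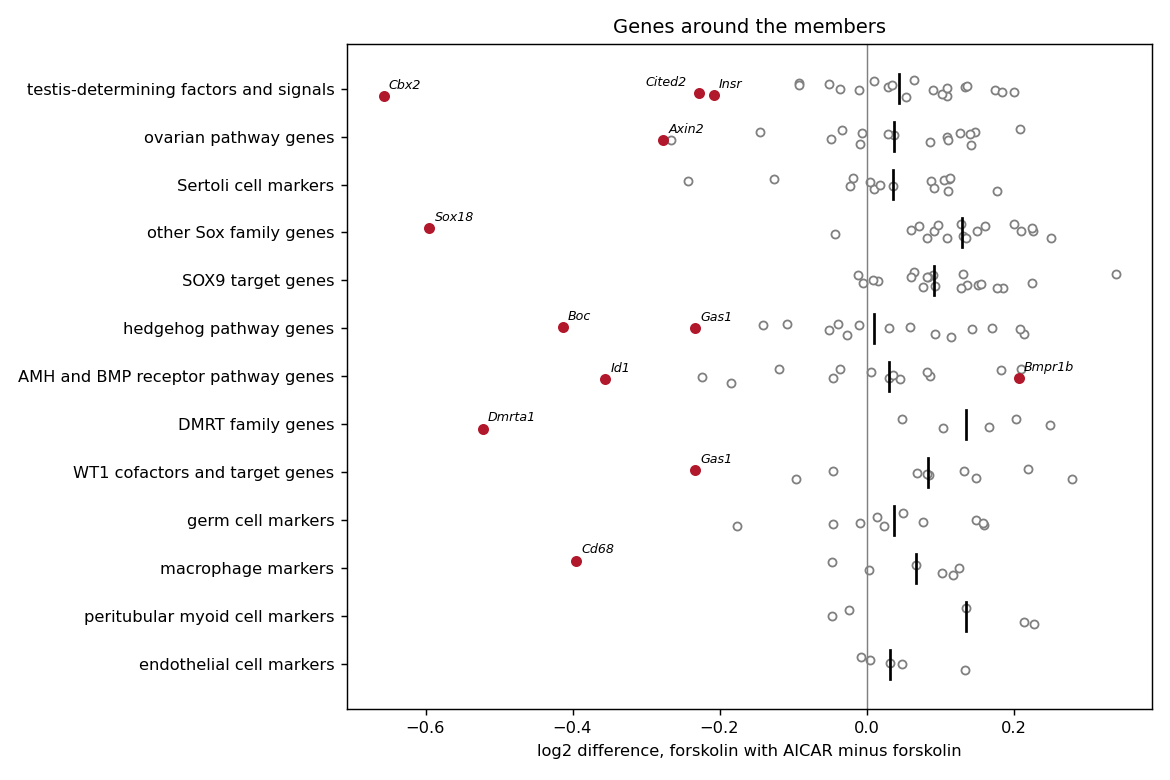
Log2 difference of forskolin with AICAR minus forskolin (horizontal axis) for the measured genes of 13 lists (the Leydig cell markers are not drawn), with called genes as filled and named points, other genes as open points and the list median as a bar. Cbx2 (−0.66), Sox18 (−0.59) and Dmrta1 (−0.52) lie farthest left among the genes drawn, and the medians of the lists drawn lie between 0.01 and 0.14.

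Markers of other cells of the testis gave 1 called gene, where 5.1% of all genes were called against forskolin and 8.72% against control. The lysosomal gene Cd68, listed as a macrophage marker, fell by 0.39 against forskolin (SE 0.06, adjusted p = 0.00676, limma) and by 0.28 against control (adjusted p = 0.0264), while the other 6 macrophage markers were not called and the defining markers Adgre1 and Csf1r read 4.81 and 5.86, under the background level. The call against control was lost without control replicate 2 or 3 (at most 0.105) and after quantile normalization (0.0610), and that against forskolin without the arrays numbered 3 (0.0911). Of 10 germ cell and 5 peritubular myoid cell markers 0 were called by limma against forskolin, where 1 and 2 had an unadjusted p under 0.05, with Sycp3 (−0.18, adjusted p = 0.176) and Tagln (0.23, adjusted p = 0.116) nearest to a call.

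In fits of the 2 compared groups alone, further list genes lost their calls, with adjusted p-values between 0.0535 and 0.133. Against forskolin these were Axin2, Bmpr1b, Gas1, Hsd3b1, Hsd3b6 and Insr. Against control they were Basp1, Boc, Cd68, Col9a3, Foxl2, Gas1, Ptgdr, Rspo1, Sox3 and Spry1, and with forskolin alone Smad7. Cbx2, Sox18, Dmrta1 and Boc against forskolin, and Cbx2, Sox18, Dmrta1, Axin2 and Smad7 against control, kept their calls under each of the 19 alternatives. So did the Leydig cell markers Star, Scarb1 and Fdx1 against forskolin, Fdx1 against control, and Star and Fdx1 with forskolin alone.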

How the data were processed

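The authors deposited log2 intensities, 1 value for each of 35557 probes, made with RMA and Partek per the submitters' processing notes; their versions are not given in the sources used here. A single gene symbol was listed for 21789 probes, several for 1621 and none for 12147. Where a gene had several probes (999 genes) the brightest was kept, which left 19938 genes. All 9 arrays were fitted together with limma (version 3.58.1, R version 4.3.3), using a two-sided moderated test and Benjamini-Hochberg adjustment over all genes, and a gene was called at an adjusted p under 0.05. The fit was tested on simulated data. Python (3.11.15) with pandas (2.3.3) and matplotlib (3.10.9) served for tables and plots. No dim probe was filtered out. Precision is limited by having 3 arrays a group.

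The members and the 14 gene lists were chosen with earlier results of these data known. Genes named were the members, up to 3 called genes per list and comparison with the largest difference (with none called, the smallest p), the 6 genes most like Sox9 by Pearson correlation (predicted genes and olfactory or vomeronasal receptors not named), and a few chosen after their values were seen (such as Sox10, Hsd3b6, Ptch1 and the Gli genes). The results were also computed with the replicate number as a block, with only genes whose mean was at least 5 or at least 6, and with quantile normalization, median centring, a trended and robust prior, fits of 2 groups, array weights, the mean of a gene's probes, each array left out, and, added after the data were seen, leaving out the arrays numbered 3 and the medians by brightness.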

Additional observations from a re-analysis of the deposited data

How the results depend on the processing

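Of 304 tested values of the 6 genes under 19 alternatives each, 283 kept their direction and their side of the threshold. Most of these are differences that were uncalled in the main analysis and stayed so. The 1 call among them, Dmrt1 in forskolin with AICAR against control, was lost under 4 of the 19. With the replicate block Dmrt1 against control, forskolin with AICAR, stayed at 0.33 but was not called (adjusted p = 0.0565), in a fit of 2 groups it was 0.33 (0.0675), and without the arrays numbered 3 it was 0.2045 (0.0542). The deviations of same-numbered arrays from their group means correlated between −0.41 and 0.33, and those of differently numbered arrays between −0.30 and 0.49. Deviations from a mean of 3 arrays depend on each other, so these values cannot decide whether the replicate numbers pair the arrays. The block lowered the numbers of called genes to 83 for forskolin against control (138 in the main analysis), 583 for forskolin with AICAR against forskolin (1017) and 874 against control (1739). With array weights they were 436, 5729 and 6619, in fits of 2 groups 496 and 758 for the AICAR comparisons, and without the arrays numbered 3 they were 43, 241 and 377. Leaving out 1 array gave 76 to 144, 487 to 3324 and 660 to 4741, the highest values of the AICAR comparisons being those without AICAR replicate 1. Of the 1017 genes 195 were higher and 822 lower (19.2% higher), against 454 and 638 (41.6%) after quantile normalization and 359 and 655 (35.4%) after median centring; with array weights they were 3075 and 2654 (53.7%), and without AICAR replicate 1 they were 1677 and 1647 (50.5%). In forskolin with AICAR against control 606 and 1133 (34.8%) became 3578 and 3041 (54.1%) with array weights and 2675 and 2066 (56.4%) without AICAR replicate 1. For forskolin against control 99 and 39 (71.7%) became 86 and 61 (58.5%) after median centring and 212 and 224 (48.6%) with array weights.

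With array weights, Sox8 (0.22), Wt1 (0.25) and Dhh (−0.17) were called against control and Dmrt1 (0.17) and Wt1 (0.22) against forskolin, all in forskolin with AICAR. Leaving out 1 array moved the AICAR difference from forskolin between 0.16 and 0.26 for Dmrt1, 0.0522 and 0.21 for Amh and 0.16 and 0.33 for Wt1, and that from control between 0.27 and 0.37 for Dmrt1, 0.19 and 0.36 for Wt1, 0.10 and 0.22 for Sox8, 0.0046 and 0.16 for Amh and −0.22 and −0.12 for Dhh. It moved forskolin against control between −0.054 and 0.0767 for Sox8 (reversed without control replicate 2, −0.054, or forskolin replicate 1, −0.0028) and between −0.0037 and 0.0872 for Wt1 (reversed without forskolin replicate 1, −0.0037, or control replicate 3, −0.0012). Other uncalled differences near 0 changed sign: Sox8 with forskolin after median centring (−0.0052), Amh against control without the arrays numbered 3 (−0.0148) and Dhh against forskolin after quantile normalization (0.0093). The cause was not tested.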
